A study of Homo sapiens with 12 samples.

Results

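The cytosolic ribosomal protein genes are the genes for the proteins of the ribosome that translates nuclear messenger RNAs. They were taken by symbol, as RPL or RPS followed by a number and an optional A or X, together with RPLP0, RPLP1, RPLP2 and RPSA, and had to be listed in both deposited tables. The rule gave 77 genes, 31 for the small subunit and 46 for the large subunit, among 43805 symbols listed in both tables. The RNA came from Jurkat cells, a human leukaemic T cell line grown in RPMI with fetal calf serum, in 12 libraries. One table sets 3 libraries labelled as carrying doxycycline-induced ZNF683 (here ZNF683, titled Hobit) against 3 Mock libraries. Whether Mock cells were given doxycycline is not stated in the labels. The other sets 3 libraries of cells titled Hobit grown with doxycycline (Dox+) against 3 without it (Dox-). The doxycycline concentration is written in the labels as 1 ug/uL. No promoter, vector or clone is named for these cells. Values are TPM, a transcript level divided by transcript length and scaled to a fixed total per library. Read numbers cannot be recovered from TPM, so depth is unknown.

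A ribosome is built from a small subunit, which reads the messenger RNA, and a large subunit, which forms the peptide bonds, and each subunit needs its proteins in matched amounts. Messenger RNAs of ribosomal proteins typically begin at a C followed by a run of pyrimidines, the 5′ terminal oligopyrimidine (TOP) tract. Through this tract mTOR signalling and the binding protein LARP1 control their translation and stability. In T cells, ribosome production rises with activation and growth, and ribosomal protein genes such as RPL5, RPL10 and RPL22 are recurrently mutated or deleted in T cell leukaemia. ZNF683 codes for the protein Hobit, a zinc finger transcription factor of tissue-resident and effector lymphocytes.

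ZNF683 transcript was low throughout, between 1.04 and 1.76 TPM in ZNF683 libraries and between 0.681 and 1.59 TPM in Mock libraries, with overlap. It lay between 0.453 and 0.774 TPM in Dox+ libraries and between 0.115 and 0.451 TPM in Dox- libraries, without overlap. Whether the introduced sequence would be counted in full under this gene is not given in the sources used here. At levels this low the transcript is a weak check of the labels, and every direction is between libraries as labelled. All 10 T cell markers looked at were above the filter in both tables. Of the B cell markers, CD79A reached 54.7 TPM. The myeloid markers CD14, LYZ, CSF1R and ITGAM stayed at or below 1.11 TPM in all 12 libraries, while Dox- library 2 alone held HBA1 at 19.5 TPM and COL1A1 at 16.998 TPM. A single transcript, AL135790.1, took 50.7% of all TPM in Dox- library 1, against between 6.65% and 12.8% in the other 5 libraries of that table, which lowers every other value in that library. In bulk RNA, fewer cells of a type and less RNA per cell cannot be told apart. Nothing in the labels says that replicates were grown apart, so p-values reflect only how far these libraries differ, which may be technical variation.

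RefSeq promoter windows (GRCh38.p14, 250 bases before to 50 after a listed start) were found for 62 of the 77 genes, in 77 windows. A TOP-like start, defined as a C at the listed start followed by at least 4 bases that are each C or T on the gene's strand, stood in 46 of the 77 windows (59.7%), against 4.07% of 35116 windows of all genes. The same run on the other strand stood in none of the 77 windows, against 2.07% of all windows. That run needs a G at the listed start, so the 46 windows with a TOP-like start could not hold it. Its absence is therefore no control for the TOP-like count. CCGGAAG, the core bound by ETS factors, stood on either strand in 33.8% of the members' windows and 10.3% of all windows. AGATGGC, within the site bound by YY1, stood in 11.7% and 5.41%. The 2 motifs and the start run can overlap, and a match describes the letters only.

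The 30 bases around the listed start, 15 before it and 15 from it on, are shown for 12 genes that the results below turn on, in the gene's own direction. Capitals mark the unbroken run of C and T that opens at the start. The 12 are a selection and do not show how start and change go together. RPS29 and RPS28, with log2 changes of -0.78 and -0.62 for ZNF683 against Mock, lacked such a run and are not shown. The first 6 were among the genes lowest in ZNF683 relative to Mock.
RPS12 (chr6:132814554-132814583, plus strand): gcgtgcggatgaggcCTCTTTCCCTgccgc
RPS21 (chr20:62387088-62387117, plus strand): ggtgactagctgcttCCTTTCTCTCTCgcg
RPS27 (chr1:153990747-153990776, plus strand): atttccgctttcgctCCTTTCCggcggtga
RPLP1 (chr15:69452803-69452832, plus strand): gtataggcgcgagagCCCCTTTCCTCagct
RPL36 (chr19:5690280-5690309, plus strand): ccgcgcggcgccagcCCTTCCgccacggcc
RPL39 (chrX:119791616-119791645, minus strand): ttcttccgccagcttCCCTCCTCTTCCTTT

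The next 3 encode proteins named often below and changed less.
RPS6 (chr9:19380222-19380251, minus strand): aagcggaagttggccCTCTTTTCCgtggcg
RPSA (chr3:39406705-39406734, plus strand): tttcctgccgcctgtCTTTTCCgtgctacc
RPLP0 (chr12:120201097-120201126, minus strand): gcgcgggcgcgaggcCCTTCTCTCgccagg
The last 3 lack such a run at the start RefSeq lists, and carry no capitals.
RPL3 (chr22:39319609-39319638, minus strand): gtaaggccgaccggcctctaccggcgggat
RPS4X (chrX:72277234-72277263, minus strand): gcagtctccagccccaatttctacgcgcac
RPS26 (chr12:56041903-56041932, plus strand): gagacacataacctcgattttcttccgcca

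Together the 77 genes made up between 5.05% and 11.6% of all TPM in a library, and their levels were far from equal. RPL7, a large-subunit protein gene, had the highest mean over the 12 libraries at 3012 TPM, followed by RPS27 at 2916, RPS19 at 2552 and RPS18 at 2542 TPM. RPS19 is the gene most often mutated in Diamond-Blackfan anaemia. The lowest were RPL28 at 247 TPM, RPL22 at 268 TPM, RPS28 at 297 TPM and RPS4X at 416 TPM. Pseudogenes of RPL22 and RPS28 held a large part of the sum with their member, as given at the end, so these low ranks are uncertain. RPS18 and RPS19, neighbours in this order, did not differ beyond their spread over libraries. The order was nearly the same in both tables, with a Spearman correlation of 0.924 across the 77 genes, which are not independent and share their libraries. The plot of levels by gene shows this order together with the spread of libraries at each gene.

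**Figure D1:**
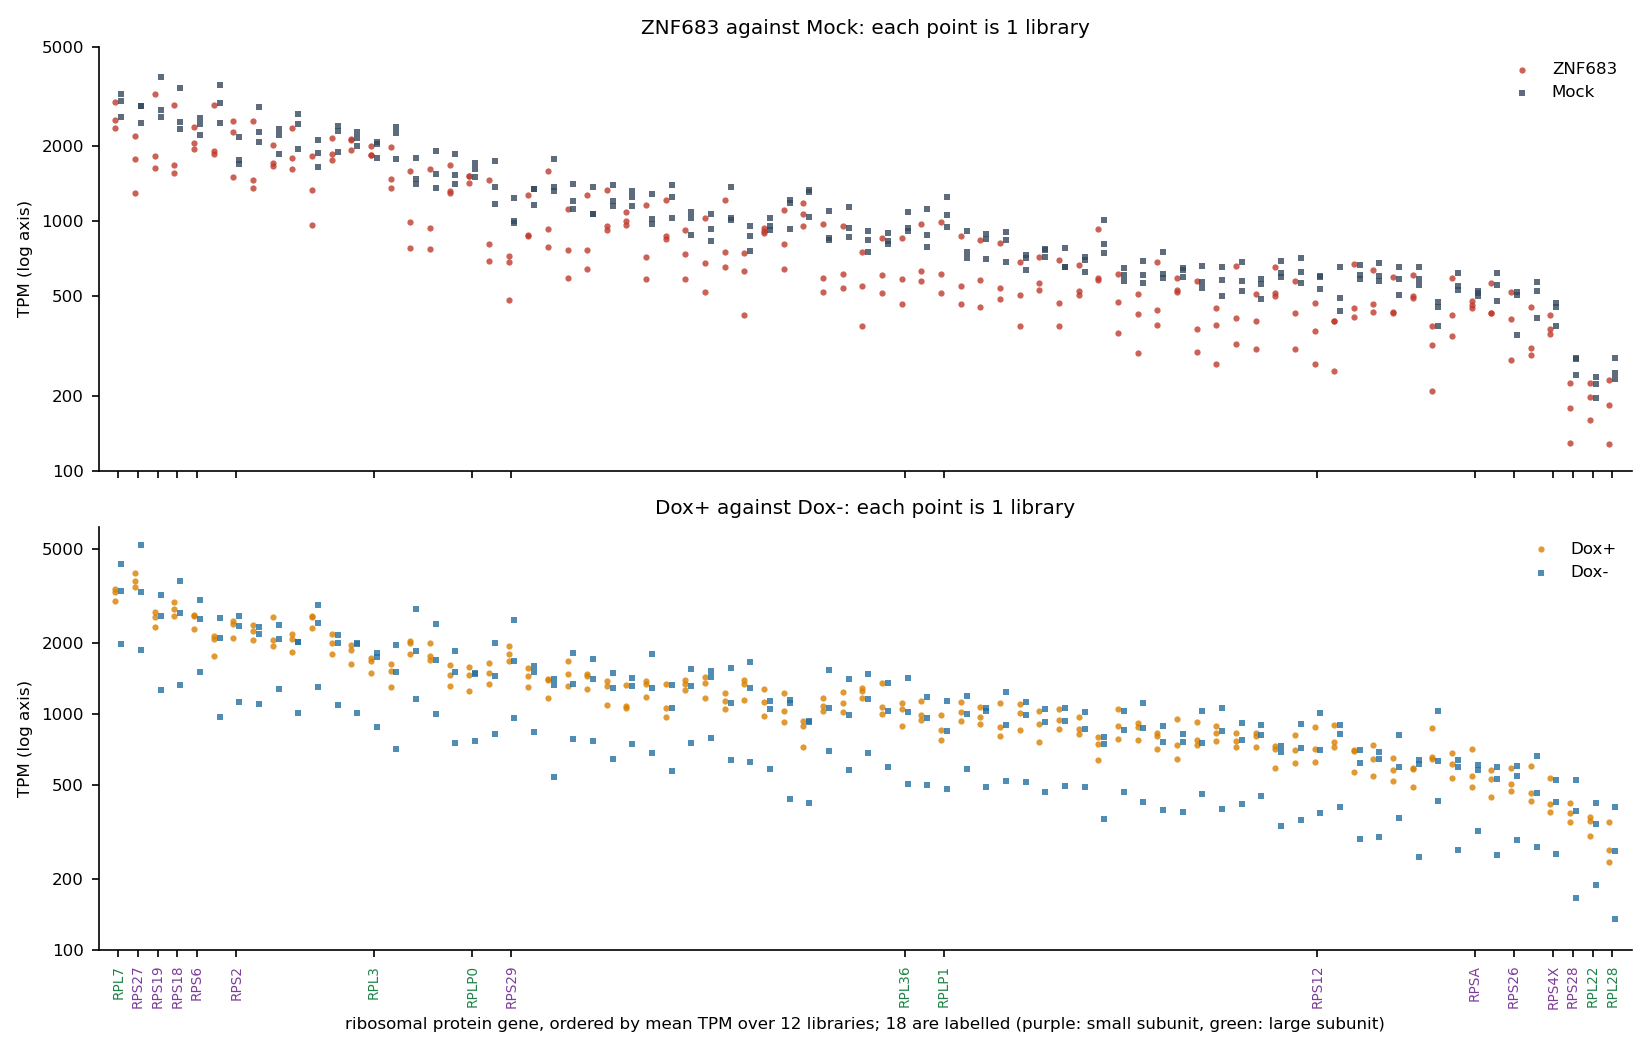
TPM (log axis) of the 77 ribosomal protein genes in each library, ordered by the mean over 12 libraries, with ZNF683 and Mock libraries above and Dox+ and Dox- libraries below; each point is 1 library. Levels run from RPL7 at 3012 TPM to RPL28 at 247 TPM on average, and Dox- library 1 is the lowest point of every gene in the lower panel.

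Relative to Mock, ribosomal protein transcripts were lower in ZNF683 libraries 1 and 2, and no gene passed the test. Summed over the 77 genes, the ZNF683 libraries held 63426, 59166 and 87569 TPM and the Mock libraries 98649, 85860.2 and 81831 TPM. ZNF683 libraries 1 and 2 lay below all Mock libraries, and ZNF683 library 3 lay inside the Mock range. The log2 change, on log2(TPM + 1) and taken as ZNF683 minus Mock, was negative for 76 of the 77 genes, against 45.1% lower and 54.9% higher of the 16588 genes tested. The members' median was -0.41 (-0.38 for the small subunit, -0.42 for the large), with a range from -0.78 for RPS29 to 0.13 for RPS2, against a median of 0.028 over all genes tested. With median-of-ratios scaling, which moved the median of all genes by 0.044, 76 were still negative, against 38.1% of genes, and the members' median was -0.36.

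None of the 77 passed an adjusted p of 0.05 in limma's moderated test with Benjamini-Hochberg adjustment over all genes, where 0.0301% of genes passed. At an unadjusted p under 0.05 there were 22 members, all lower, 9 for the small subunit and 13 for the large, against 6.42% of genes lower and 6.55% higher at that level. In 14 members, 7 of each subunit, all 3 ZNF683 values lay below all 3 Mock values, against 8.51% of genes, and in no member above them, against 8.71%. With median-of-ratios scaling 7 members lay below, against 7.24% of genes, and 0 above, against 11.8%. The 22 members at an unadjusted p under 0.05 stood beside 2152 of 16588 genes (13%). They became 13 with that scaling, beside 2411 of 16588 genes, and 7 without Mock library 1, beside 1584 of 16655. Both member shares were near those of all genes counted in both directions. The share of genes lower alone is not given for these 2 runs. Leaving out ZNF683 library 1 gave 11 members beside 1380 of 16713 genes, and leaving out ZNF683 library 2 gave 7 beside 1044 of 16718. Without ZNF683 library 3 there were 62, beside 3193 of 16590. A p that misses the threshold does not show that levels were equal. Without ZNF683 library 2 the members' median was -0.24, without ZNF683 library 3 it was -0.64, with all 77 negative.

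By library, the median distance of the 77 genes from the Mock mean was -0.48, -0.76 and -0.010 in ZNF683 libraries 1, 2 and 3 and 0.14, -0.066 and -0.11 in Mock libraries 1, 2 and 3, on the log2 scale. The corresponding median of all genes tested stayed between -0.073 and 0.055 in these libraries. ZNF683 library 2 was the lowest of the 6 libraries for 60 members and ZNF683 library 1 for 15. Mock library 1 was the highest for 58. Small-subunit and large-subunit genes shifted together in each library, with subunit medians of -0.52 and -0.47 in ZNF683 library 1 and of -0.77 and -0.76 in ZNF683 library 2. Both subunits had a median of -0.010 to -0.011 in ZNF683 library 3.

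**Figure D2:**
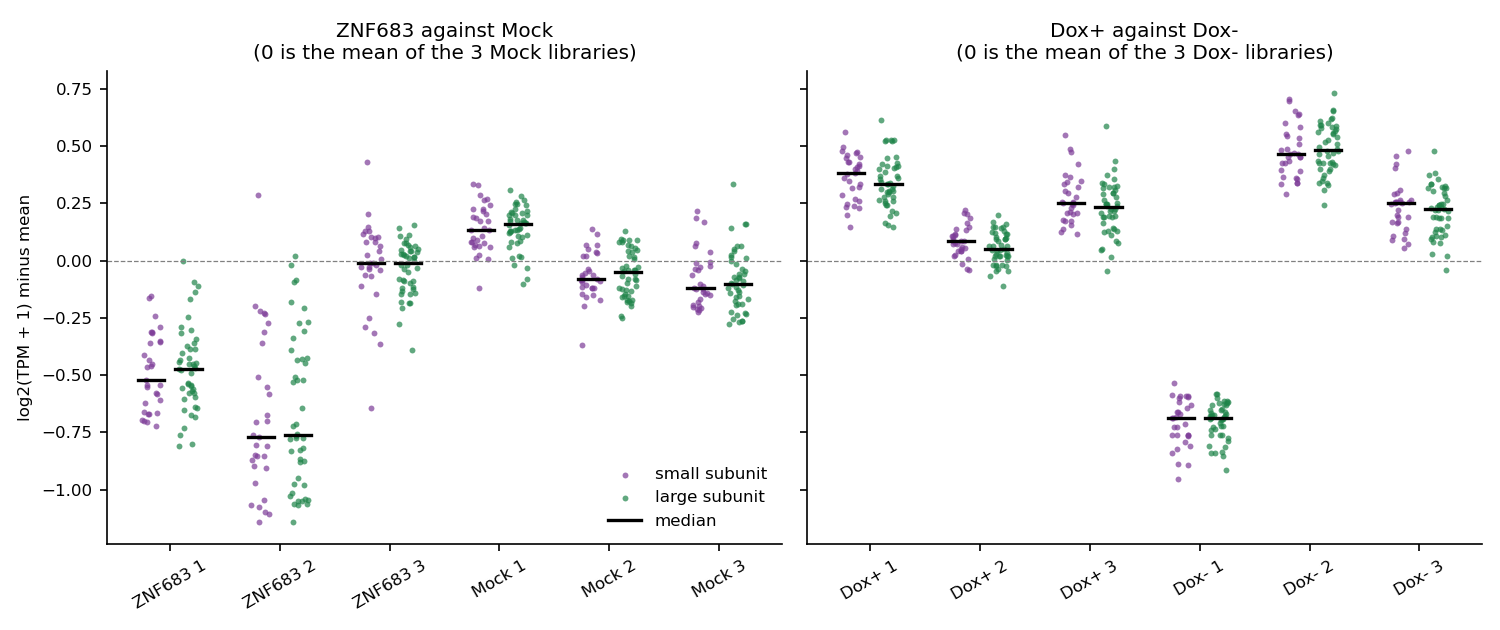
Distance of each ribosomal protein gene from the mean of the 3 Mock (left) or 3 Dox- (right) libraries, as a difference in log2(TPM + 1); points are genes, small subunit left and large subunit right within each library, and bars are medians. ZNF683 libraries 1 and 2 lie low, ZNF683 library 3 lies with the Mock libraries, and Dox- library 1 lies below all others of its table at a median of -0.69.

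Among small-subunit genes, the largest decreases were in genes with short coding sequences. RPS29, a zinc-binding protein gene (chromosome 14, 49570984 to 49599164, GRCh38), had 729, 484 and 684 TPM in ZNF683 libraries, against 985, 1002 and 1241 TPM in Mock libraries. All ZNF683 values were lower, with the lowest in library 2, and the log2 change was -0.78 ± 0.18 (SE; limma adjusted p = 0.271). RPS12 (chromosome 6, 132814441 to 132817564), at the beak of the small subunit, had 364, 268 and 471 TPM in ZNF683 libraries, against 601, 598 and 534 TPM in Mock libraries. Its groups did not overlap either (log2 change -0.69 ± 0.19, limma adjusted p = 0.288). RPS21 (chromosome 20, 62387116 to 62388520) stood in ZNF683 libraries at 385, 269 and 448 TPM, against 581, 503 and 656 TPM in Mock libraries, again without overlap (log2 change -0.68 ± 0.20, limma adjusted p = 0.291).

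RPS27, which encodes a zinc finger protein and was the second most abundant member, had 1783, 1304 and 2207 TPM in ZNF683 libraries and 2897, 2472 and 2893 TPM in Mock libraries (log2 change -0.67 ± 0.20). RPS28, which lies near the messenger RNA exit site, had 178, 129 and 224 TPM in ZNF683 libraries and 282, 241 and 279 TPM in Mock libraries (log2 change -0.62 ± 0.19). Neither pair of groups overlapped. RPS19, at 1834, 1629 and 3249 TPM in ZNF683 libraries and 3806, 2795 and 2616 TPM in Mock libraries, shows the more common pattern: libraries 1 and 2 were low and library 3 was higher than 2 of the Mock libraries (log2 change -0.51 ± 0.27).

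Of the large-subunit genes, the 3 genes of the acidic stalk differed in the size of their change. The stalk is the flexible arm that recruits elongation factors, with RPLP0 as its base and RPLP1 and RPLP2 as its tips. RPLP1 had 615, 516 and 993 TPM in ZNF683 libraries and 1255, 1058 and 948 TPM in Mock libraries (log2 change -0.67 ± 0.24, limma adjusted p = 0.341). RPLP2 had 427, 307 and 578 TPM in ZNF683 libraries and 716, 567 and 627 TPM in Mock libraries (log2 change -0.58 ± 0.22). In both genes ZNF683 library 3 reached into the Mock range. RPLP0 had 1429, 1517 and 1519.9 TPM in ZNF683 libraries and 1705, 1624 and 1500.3 TPM in Mock libraries, with overlap and a smaller log2 change of -0.11 ± 0.11. The difference between RPLP0 and its partners was not tested.

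RPL36 and RPL37 were the other large-subunit genes with the most negative values. RPL36 had 588, 467 and 859.7 TPM in ZNF683 libraries and 1086, 913 and 938 TPM in Mock libraries (log2 change -0.66 ± 0.21). RPL37 had 425, 295 and 512 TPM in ZNF683 libraries and 606, 567 and 694 TPM in Mock libraries (log2 change -0.63 ± 0.20). Both were free of overlap. RPL12, one of the less abundant large-subunit genes, had 312, 290.1 and 451 TPM in ZNF683 libraries and 571, 527 and 410.4 TPM in Mock libraries (log2 change -0.53 ± 0.19). ZNF683 library 3 lay inside the Mock range of RPL12. Other members without overlap as deposited included RPL5, RPL7A, RPL28, RPL37A, RPL38 and RPSA, of which RPL7A, RPL37A and RPL38 were picked out after their values were seen. With median-of-ratios scaling only 2 large-subunit and 5 small-subunit members stayed without overlap, against 7.24% of genes.

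RPL5 and RPL11 form a particle with 5S ribosomal RNA that joins the large subunit and, when free, binds MDM2, the inhibitor of p53. RPL5 had 965, 1001 and 1093 TPM in ZNF683 libraries and 1249.7, 1322 and 1151 TPM in Mock libraries, without overlap (log2 change -0.28 ± 0.12, limma adjusted p = 0.368). RPL11 had 540.1, 487 and 819 TPM in ZNF683 libraries and 902, 842 and 688 TPM in Mock libraries, with overlap in library 3 (log2 change -0.43 ± 0.20). RPL10, which completes the large subunit late in its assembly, had 1298, 1318 and 1676 TPM in ZNF683 libraries and 1859, 1527 and 1412 TPM in Mock libraries (log2 change -0.16 ± 0.16). RPL22 stood at 198, 159 and 225 TPM in ZNF683 libraries and 238, 196 and 222 TPM in Mock libraries (log2 change -0.18 ± 0.15, or -0.35 when summed with its pseudogenes).

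The members closest to 0 were long. RPL3, near the peptidyl transferase centre, had 1845, 1995 and 1852 TPM in ZNF683 libraries and 2049.9, 2086 and 1786 TPM in Mock libraries (log2 change -0.054 ± 0.12). RPL4, which lines the exit tunnel, had 2141, 2114 and 1936 TPM in ZNF683 libraries and 1996, 2281 and 2157 TPM in Mock libraries (log2 change -0.055 ± 0.12). RPL6 had 899.5, 911 and 937 TPM in ZNF683 libraries and 956, 1034 and 925 TPM in Mock libraries (log2 change -0.084 ± 0.11). Each of these pairs of groups overlapped. RPS2 (chromosome 16, 1962052 to 1964860), by the messenger RNA entry channel, was the only member with a positive value. It had 1498, 2279 and 2520.4 TPM in ZNF683 libraries and 2181, 1763 and 1696 TPM in Mock libraries, with overlap (log2 change 0.13 ± 0.21, limma adjusted p = 0.773), and its sign turned to -0.016 without ZNF683 library 3.

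RPS6, the substrate of the S6 kinases, had 1943, 2059 and 2379.5 TPM in ZNF683 libraries and 2587, 2447 and 2222 TPM in Mock libraries (log2 change -0.19 ± 0.14). RPSA, also known as the laminin receptor, had 463, 449 and 477 TPM in ZNF683 libraries and 518, 527 and 502 TPM in Mock libraries; its groups did not overlap although the log2 change was only -0.16 ± 0.10. RPS26, next to the messenger RNA exit site, had 404, 277 and 521 TPM in ZNF683 libraries and 521, 350.0 and 508 TPM in Mock libraries, with overlap. Its log2 change was -0.22 ± 0.24 and turned to 0.019 without ZNF683 library 2. RPS27A, made as a fusion with ubiquitin, and RPS4X had log2 changes of -0.38 ± 0.23 and -0.18 ± 0.12.

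Across the 77 genes, the size of the ZNF683 against Mock change followed coding length, which the choice of genes did not use. Coding length was the longest principal coding sequence of each gene in GENCODE v29. The median log2 change was -0.63 in the 9 members of up to 300 nucleotides, -0.49 in 27 members of 301 to 450, -0.41 in 19 members of 451 to 600, -0.19 in 19 members of 601 to 900 and -0.055 in the 3 members above 900. Spearman's correlation between coding length and log2 change was 0.83 across the 77 genes, 0.84 for the small subunit and 0.83 for the large. RPL41, the shortest at 75 nucleotides, was less low than this order would place it, with 1330.2, 969.5 and 1831 TPM in ZNF683 libraries and 2123, 1652 and 1872 TPM in Mock libraries (log2 change -0.49 ± 0.23). RPS26, at 345 nucleotides and -0.22, and RPL22, at 384 nucleotides and -0.18, also stood apart from the median of -0.49 in their class. The 77 genes share their libraries and are not independent.

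Other protein-coding genes showed a weaker order by length class. Their median log2 change was -0.12 in the 273 genes of up to 300 nucleotides, -0.016 at 301 to 450, 0.054 at 451 to 600, 0.083 at 601 to 900 and 0.086 in the 8286 above 900, and their correlation with coding length was 0.0064 over 11378 genes. In the shortest class the members' medians by library were -0.55, -1.07 and -0.28 in ZNF683 libraries 1, 2 and 3 and 0.015, -0.15 and 0.16 in Mock libraries 1, 2 and 3. In the 3 longest they were -0.094, -0.019 and -0.088 in ZNF683 libraries and 0.058, 0.083 and -0.100 in Mock libraries. The shortest members were therefore lower than the Mock mean also in ZNF683 library 3. The other coding genes of up to 300 nucleotides had medians of -0.25, -0.17 and 0.096 in ZNF683 libraries and 0.065, -0.038 and -0.020 in Mock libraries, and so were lower than the Mock mean in ZNF683 libraries 1 and 2 and not in library 3. TPM are scaled by transcript length, and whether this order lies in that scaling or in transcript amounts was not tested, since no reads were used here.

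**Figure D3:**
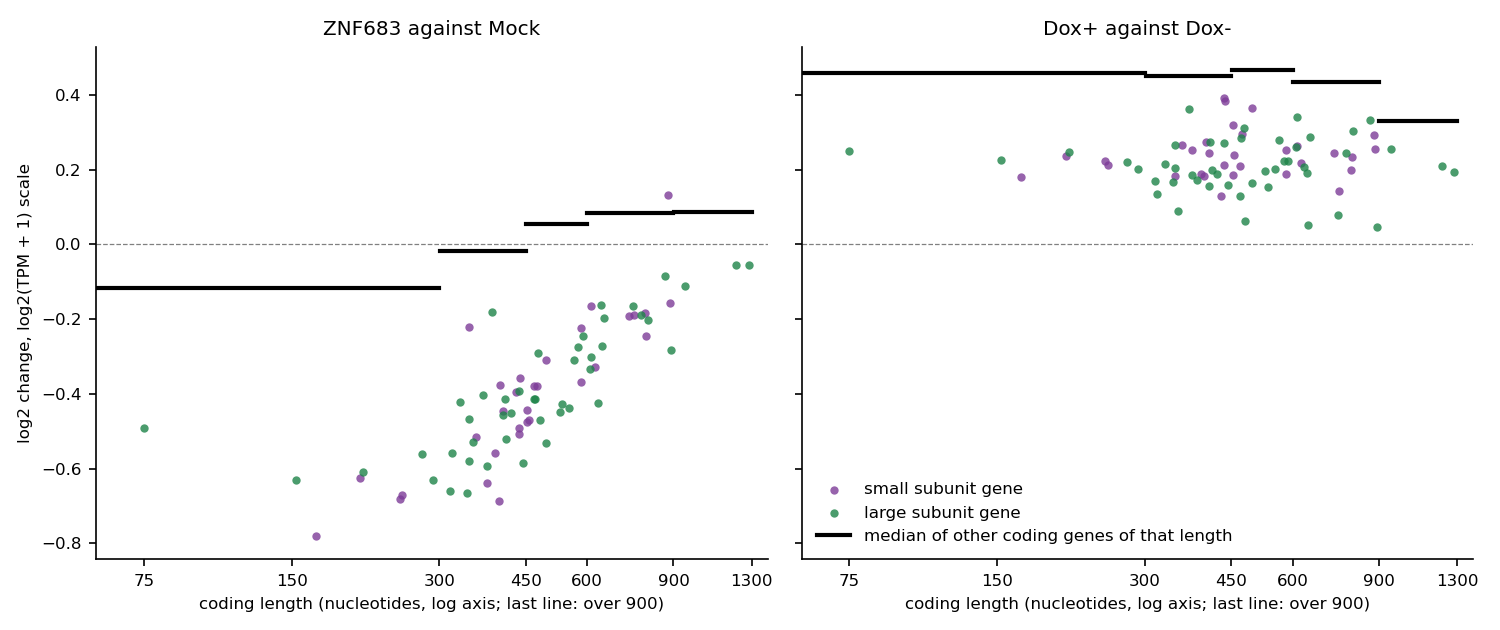
Log2 change against coding length (log axis) for the 77 ribosomal protein genes, for ZNF683 against Mock on the left and Dox+ against Dox- on the right; black lines are medians of other protein-coding genes in the same length classes. On the left the members climb from a median of -0.63 in the shortest class to -0.055 above 900 nucleotides, and on the right they form a flat band around 0.22.

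Each member was also set against the summed TPM of all 77 genes, a share that does not depend on how a library was scaled. This measure, and the genes named by it, were chosen after the data were seen and are a description. RPS12, RPS15A, RPS25, RPS27, RPL36, RPL39 and RPLP1 took a smaller share in every ZNF683 library than in any Mock library. Of all genes tested, 1.05% were lower in this way relative to the family sum. RPS2, RPL10, RPL10A, RPL19 and RPL29 took a larger share, and 13.9% of all genes were higher relative to the family sum. That sum was itself lower in ZNF683 libraries 1 and 2, which raises other genes relative to it. Member shares add up to the whole family, so the percentages over all genes are not a like background for them. RPS27 made up 2.81, 2.20 and 2.52% of the family in ZNF683 libraries and 2.94, 2.88 and 3.53% in Mock libraries. RPS2 made up 2.36, 3.85 and 2.88% in ZNF683 libraries and 2.21, 2.05 and 2.07% in Mock libraries.

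The balance between the subunits moved little. Summed small-subunit TPM over summed large-subunit TPM was 0.697, 0.695 and 0.743 in ZNF683 libraries and 0.738, 0.712 and 0.730 in Mock libraries, and the groups overlapped. On the log2 scale the ZNF683 libraries averaged -0.49 ± 0.055 and the Mock libraries -0.46 ± 0.026 (SD, n = 3 each). The ratio was 0.772, 0.780 and 0.782 in Dox+ libraries and 0.757, 0.766 and 0.760 in Dox- libraries. All Dox+ ratios lay above all Dox- ratios, including the Dox- library with the dominant transcript. On the log2 scale the Dox+ libraries averaged -0.36 ± 0.010 and the Dox- libraries -0.39 ± 0.0080 (SD, n = 3 each), a difference of 0.032. No test was made on this ratio, since it is a value over chosen genes.

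As a share of protein-coding TPM, the family took 7.55, 6.86 and 10.2% in ZNF683 libraries and 11.8, 10.5 and 9.70% in Mock libraries. In the other table it took 12.7, 10.8 and 11.5% in Dox+ libraries and 12.4, 15.9 and 11.4% in Dox- libraries. Both pairs of groups overlapped, the first through ZNF683 library 3. Dox- library 2 held the highest share of all 12, and it was also the library with the raised HBA1 and COL1A1 values, whose part in this share was not tested.

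**Figure D4:**
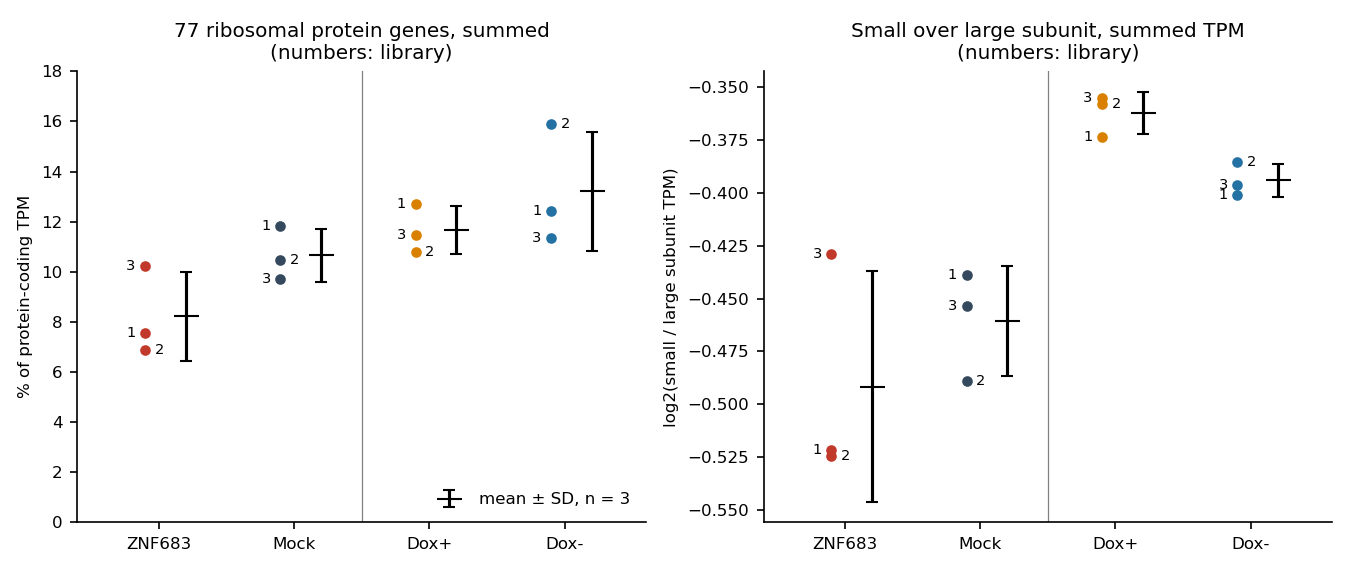
Left, summed TPM of the 77 ribosomal protein genes as a percentage of protein-coding TPM; right, log2 ratio of summed small-subunit to large-subunit TPM; points are libraries with their numbers, and bars are mean ± SD of 3 libraries. The family share overlaps between the groups of each table, and the 3 Dox+ ratios lie above the 3 Dox- ratios by 0.032 on average; the right axis does not start at 0.

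With doxycycline, ribosomal protein transcripts did not move as a group beyond the spread between libraries. The family summed to 103049, 85947 and 96874 TPM in Dox+ libraries and 50407, 115167 and 94684 TPM in Dox- libraries. The Dox+ values lay inside the wide Dox- range, with Dox- library 1 lowest and Dox- library 2 highest. All 77 log2 changes (Dox+ minus Dox-) were positive as deposited, against 79.1% of the 15148 genes tested, but 44 of 77 were negative with median-of-ratios scaling, against 35.6% of genes. The members' median was 0.22 as deposited, below the median of 0.32 over all genes. Median-of-ratios scaling moved the median of all genes by -0.19, and the members' median was then -0.0072, against 0.13 over all genes. With AL135790.1 left out and the rest rescaled, 69 of 77 were negative with a median of -0.087, against 0.060 over all genes. Without Dox- library 1, 75 were negative, with a median of -0.13, against 0.045 over all genes.

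No member passed an adjusted p of 0.05 in limma's test, where 0.396% of genes passed, and no member had an unadjusted p under 0.05, against 6.34% of genes (4.69% higher and 1.65% lower). No member's groups were free of overlap, against 7.91% of genes higher and 0.891% lower, nor with median-of-ratios scaling, against 9.34% higher and 3.72% lower. The median distance from the Dox- mean was 0.35, 0.065 and 0.24 in Dox+ libraries 1, 2 and 3 and -0.69, 0.47 and 0.23 in Dox- libraries 1, 2 and 3. With median-of-ratios scaling these were 0.070, -0.18 and 0.091 in Dox+ libraries and 0.0071, 0.098 and -0.091 in Dox- libraries. Dox- library 1 was the lowest for all 77 members as deposited and Dox- library 2 the highest for 56. The median standard error of a member's log2 change was 0.42 here, with a range of 0.41 to 0.43, against 0.20 in the ZNF683 and Mock table. Much larger changes also missed the threshold here, such as that of the T cell marker CD2 at 1.28 ± 0.43 (limma adjusted p = 0.310). Missing the threshold here therefore does not show equal levels.

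Among small-subunit genes, RPS15 had the most positive value, with 1392, 1169 and 1408 TPM in Dox+ libraries and 541, 1405 and 1329.8 TPM in Dox- libraries (log2 change 0.39 ± 0.42, limma adjusted p = 0.753). Apart from Dox- library 1, its 5 values spanned a narrow range, and the log2 change was 0.17 with median-of-ratios scaling. RPS16 and RPS10 followed with log2 changes of 0.38 ± 0.43 and 0.36 ± 0.43. RPS29 had 1937, 1683 and 1793 TPM in Dox+ libraries and 960.1, 2498 and 1672 TPM in Dox- libraries (log2 change 0.18 ± 0.42), with Dox- libraries on both sides of all Dox+ values. RPS6 had 2601, 2298 and 2621 TPM in Dox+ libraries and 1502, 3046 and 2538 TPM in Dox- libraries (log2 change 0.14 ± 0.42, -0.082 with median-of-ratios scaling). RPS23, in the decoding centre, had a log2 change of 0.13 ± 0.42, which was -0.095 with that scaling.

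Of the large-subunit genes, RPL35 had 1032, 922 and 1232 TPM in Dox+ libraries and 435, 1109 and 1142 TPM in Dox- libraries (log2 change 0.36 ± 0.42), RPL15 a log2 change of 0.34 ± 0.42 and RPL6 one of 0.33 ± 0.42. At the other end, RPL5 had 1326, 1064 and 1080.0 TPM in Dox+ libraries and 745, 1419.7 and 1309 TPM in Dox- libraries (log2 change 0.046 ± 0.42, -0.18 with median-of-ratios scaling). RPL14 and RPL21 had 0.051 ± 0.43 and 0.063 ± 0.42 as deposited, and -0.17 and -0.16 with that scaling. RPL7 had 3379.6, 3010.3 and 3304 TPM in Dox+ libraries and 1989, 4308 and 3334 TPM in Dox- libraries. Relative to the family sum, RPL7 was lower and RPL24 higher in every Dox+ library than in any Dox- library, as were 3.72% and 3.68% of all genes. RPL7 made up 3.28, 3.50 and 3.41% of the family in Dox+ libraries and 3.95, 3.74 and 3.52% in Dox- libraries. RPL24, chosen after its values were seen, made up 0.805, 0.828 and 0.838% in Dox+ libraries and 0.777, 0.772 and 0.802% in Dox- libraries.

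The members showed little order by coding length here. Their median log2 changes were 0.22 up to 300 nucleotides, 0.20 at 301 to 450, 0.22 at 451 to 600, 0.24 at 601 to 900 and 0.21 above 900, with a Spearman correlation of 0.10 across the 77 genes. Single libraries turned this value, which was -0.37 without Dox- library 2, -0.10 without Dox+ library 1 and 0.23 without Dox- library 1. Other coding genes ran the other way, with a correlation of -0.26 across 10882 genes.

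The difference between the changes in the 2 tables, as ZNF683 minus Mock less Dox+ minus Dox-, was fitted over all 12 libraries. It was below 0 for all 77 members, against 80.8% of the 14468 genes tested, and for 73 members with median-of-ratios scaling and 71 without Dox- library 1. The members' median was -0.64, against -0.28 over all genes, and -0.36, against -0.047, with that scaling. Without Dox- library 1 it was -0.29, against -0.024 over all genes. The share of all genes below 0 is not given for these 2 settings. No member passed an adjusted p of 0.05 in limma's test, where 0.0138% of genes passed. RPS29 alone had an unadjusted p under 0.05, against 3.75% of genes, with a difference of -0.96 ± 0.44 (SE, limma adjusted p = 0.876). There were 19 such members without ZNF683 library 3, beside 545 of 14464 genes, and 36 without Dox- library 2, beside 974 of 14218. The other settings run gave between 0 and 3 members, with 3 beside 5064 of 14423 genes without Dox- library 3. The 2 tables share no library, but their levels were set on different gene lists.

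Genes around the ribosomal proteins were followed in further lists, and no gene of any list passed the threshold in either comparison. For ZNF683 against Mock, 54.9% of all genes tested were higher and 45.1% lower, and 8.71% were higher and 8.51% lower without overlap. With median-of-ratios scaling 38.1% of genes were lower, and 11.8% were higher and 7.24% lower without overlap. FAU, a ribosomal protein made as a fusion with a ubiquitin-like sequence, lies outside the symbol rule. FAU had 466, 385 and 682 TPM in ZNF683 libraries and 737, 552 and 629 TPM in Mock libraries (log2 change -0.36 ± 0.21). Of 6 tested paralogs of ribosomal proteins, 5 were lower, and 4 with median-of-ratios scaling. RPL22L1, the paralog of RPL22, had 21.8, 17.8 and 31.3 TPM in ZNF683 libraries and 34.4, 32.7 and 28.5 TPM in Mock libraries (log2 change -0.45 ± 0.19). RPL7L1, the paralog of RPL7, had 134, 126 and 120.4 TPM in ZNF683 libraries and 96.6, 92.6 and 114 TPM in Mock libraries, higher and without overlap (log2 change 0.33 ± 0.11, limma adjusted p = 0.336).

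Other genes with TOP messenger RNAs were less uniform. All 5 elongation factor genes were lower in ZNF683 libraries (median log2 change -0.16), and EEF2, the translocase, had 439.6, 429.5 and 417 TPM in ZNF683 libraries and 499.97, 571 and 496 TPM in Mock libraries without overlap (log2 change -0.28 ± 0.11). With median-of-ratios scaling 4 of the 5 were lower. Of 16 further TOP genes, 12 were lower (median -0.076; 11 with median-of-ratios scaling). TPT1, the translationally controlled tumour protein, had 554, 582 and 636 TPM in ZNF683 libraries and 772, 1086 and 739 TPM in Mock libraries, and all ZNF683 values, library 3 included, were lower (log2 change -0.53 ± 0.16, limma adjusted p = 0.308).

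Initiation factor genes went the other way in number, with 17 of 22 higher in ZNF683 libraries, against 54.9% of all genes (median 0.18, and 18 with median-of-ratios scaling). EIF3M, a subunit of the eIF3 complex, had 826, 854 and 787 TPM in ZNF683 libraries and 661, 652 and 733 TPM in Mock libraries, without overlap (log2 change 0.27 ± 0.11, limma adjusted p = 0.365). EIF2S1, the regulated alpha subunit of eIF2, had 587, 560.5 and 448 TPM in ZNF683 libraries and 365, 348 and 496 TPM in Mock libraries, with overlap (log2 change 0.41 ± 0.17). Of 9 chaperones and loading factors of ribosomal proteins, 8 were higher (median 0.23). PDCD2, a chaperone of RPS2, had 85.4, 124 and 111 TPM in ZNF683 libraries and 76.7, 73.7 and 83.6 TPM in Mock libraries, without overlap (log2 change 0.44 ± 0.15, limma adjusted p = 0.333). AAMP had 135, 130.1 and 115 TPM in ZNF683 libraries and 107, 94.2 and 111 TPM in Mock libraries, also without overlap (log2 change 0.28 ± 0.11).

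Among 14 regulators of TOP translation and mTOR signalling, 8 were higher, near the share of 54.9% over all genes (median 0.053, and 10 with median-of-ratios scaling). EIF4EBP2, a repressor of cap-dependent initiation, had 43.4, 44.3 and 38.7 TPM in ZNF683 libraries and 30.9, 31.5 and 37.8 TPM in Mock libraries, without overlap (log2 change 0.33 ± 0.12). LARP1 had 20.4, 16.5 and 16.8 TPM in ZNF683 libraries and 15.7, 18.6 and 20.9 TPM in Mock libraries, fully overlapping. Of 6 genes of the p53 response to ribosomal stress, 4 were higher (median 0.12; 5 with median-of-ratios scaling). MDM2 had 93.6, 88.8 and 82.5 TPM in ZNF683 libraries and 82.5, 90.005 and 108 TPM in Mock libraries (log2 change -0.073 ± 0.12).

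**Figure D5:**
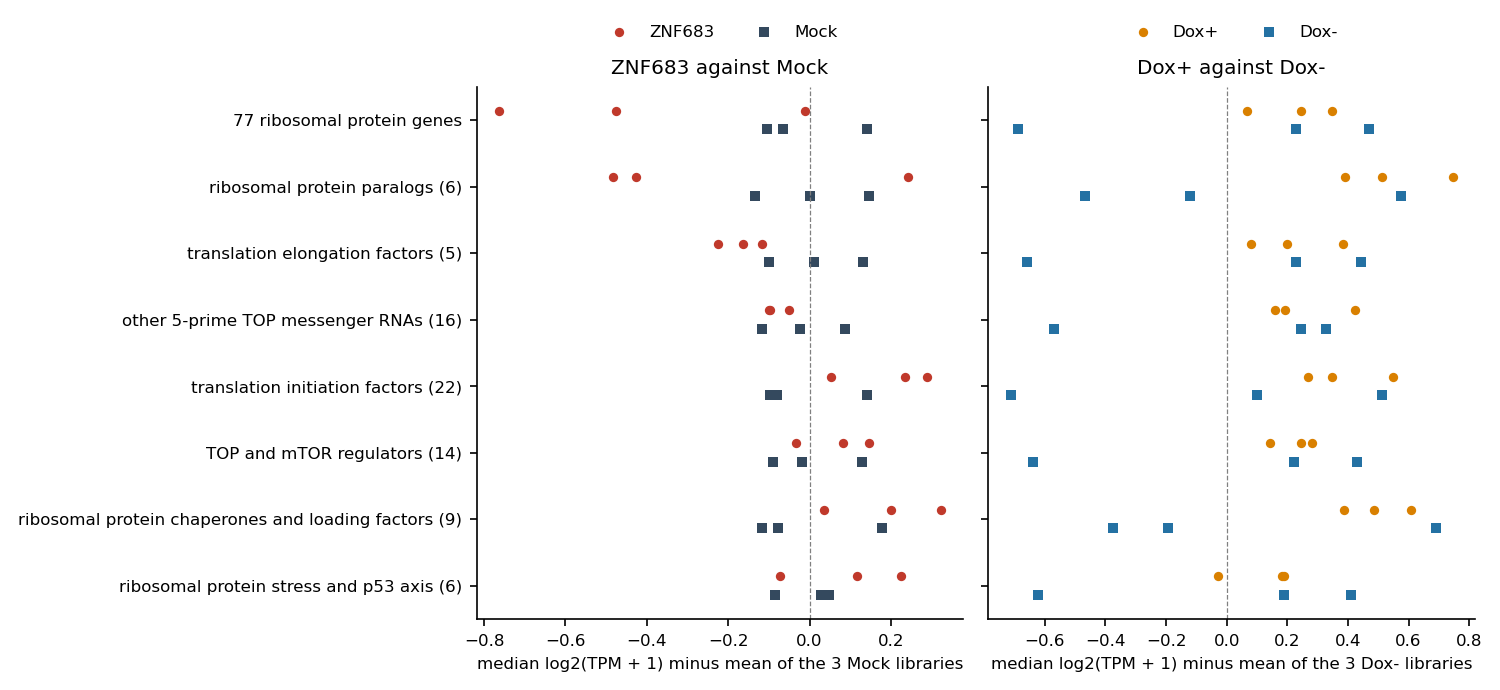
Median log2(TPM + 1) of each gene list in each library, minus the mean of the 3 Mock (left) or 3 Dox- (right) libraries; points are libraries, and the number of tested genes stands in brackets. On the left the ribosomal protein genes spread widest, down to -0.76, and on the right Dox- library 1 lies lowest in every list as deposited.

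In Dox+ against Dox-, positive values prevailed as deposited, as they did over all genes: 6 of 6 paralogs, 4 of 5 elongation factors, 16 of 16 other TOP genes, 20 of 22 initiation factors, 12 of 14 regulators, 9 of 9 chaperones and 5 of 6 p53 response genes. With median-of-ratios scaling, 8 of the 16 other TOP genes, 7 of the 14 regulators and all 6 p53 response genes were negative, against 35.6% of all genes. Chaperones had a median of 0.30 with that scaling and 0.50 as deposited, and paralogs had 0.33 and 0.56, while the 77 ribosomal protein genes had -0.0072 and 0.22. The 10 T cell markers were all higher in Dox+ than in Dox- libraries, with a median of 0.74 as deposited and 0.52 with that scaling, and none passed the test. Their summed level lay between 3462 and 3793 TPM in Dox+ libraries and between 1491 and 3089 TPM in Dox- libraries. Dox- library 2, which had the highest ribosomal protein share, had the lowest level of the 6 libraries for CD2, an adhesion receptor, at 71.3 TPM. The same held for CD3G, a chain of the T cell receptor complex, at 101 TPM, and for CD247. The rest of the 10 markers were lowest in Dox- library 1, where AL135790.1 lowers every other value. The part of these markers in the ribosomal protein values was not tested. RPL39L, the paralog of RPL39, had 238, 231 and 248 TPM in Dox+ libraries and 115, 147 and 219 TPM in Dox- libraries, without overlap (log2 change 0.62 ± 0.43, limma adjusted p = 0.737). Of all genes, 7.91% were higher without overlap. LTV1, an assembly factor of the small subunit, had 35.2, 39.9 and 53.4 TPM in Dox+ libraries and 17.6, 10.0 and 54.6 TPM in Dox- libraries, with overlap through Dox- library 3 (log2 change 0.94 ± 0.43, limma adjusted p = 0.737).

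By start site, the 46 genes with a TOP-like listed start had a median log2 change of -0.42 for ZNF683 against Mock and a median coding length of 441 nucleotides. The 16 with a window but no such start, among them RPL3, RPL4, RPL6, RPS4X and RPS29, had -0.29 and 579 nucleotides, and the 15 unmatched genes had -0.41 and 474 nucleotides. For Dox+ against Dox- the medians were 0.22 in all 3 sets. RPS29, the most negative member, and RPL3, among the least, both lacked the run at their listed start. Start class and coding length differ together here, and the part of each was not tested.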

How the data were processed

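The authors deposited 2 tables of TPM per gene symbol, of 55514 and 44389 symbols. Per the submitters' processing notes the tools include DESeq2 1.22.2 and kallisto 0.46.0, without their roles; the genome build and transcript set are not given in the sources used here. Members and lists were chosen with earlier results of these data known.

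Genes averaging 1 TPM or more over a table's 6 libraries, all 77 members included, entered limma 3.58.1 as log2(TPM + 1) (R 4.3.3; trended empirical Bayes, two-sided, Benjamini-Hochberg over all genes, threshold 0.05), in each table alone, and the procedure was checked on simulated data. In the doxycycline table the prior degrees of freedom were unlimited, so a single gene's spread carried almost no weight. Without read numbers no counting interval can be given.

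Median-of-ratios scaling, another pseudocount, other filters, robust moderation, pseudogene sums, a replicate block and leaving out each library were alternatives. Named genes were a fixed panel, the extremes of level and change in each subunit, and the 3 smallest p of each list. Positions and coding lengths are from GENCODE v29 (GRCh38), where all 77 symbols matched 1 gene each. TPM of near-identical copies cannot be told apart. Some genes are not reported here by name.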

Additional observations from a re-analysis of the deposited data

How the results depend on the processing

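No member passed the threshold in any alternative run. For ZNF683 against Mock the members' median of -0.41 stayed negative, between -0.64 without ZNF683 library 3 and -0.24 without ZNF683 library 2. For doxycycline their median of 0.22 turned to -0.0072 with median-of-ratios scaling, -0.0070 with the members also left out of the factors, -0.087 with AL135790.1 left out and -0.13 without Dox- library 1, and was 0.47 without Dox- library 2. For the difference it ran between -0.87 and -0.29. Counts over all genes moved. For ZNF683 against Mock the 5 became 3 with a pseudocount of 0.1, 0 with one of 5 TPM, without a filter or with a mean of at least 5 TPM, and 8 with robust moderation; they ran from 0 (without Mock library 2) to 49 (without ZNF683 library 1). For doxycycline the 60 became 0 without a filter, 15 with a mean of at least 5 TPM, 1 with median-of-ratios scaling with or without the members, 23 with robust moderation and 0 with AL135790.1 left out; they ran from 0 (without Dox- library 1) to 2788 (without Dox- library 3). For the difference the 2 became 1 with median-of-ratios scaling and ran from 1 to 2550.

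Deviations of same-numbered libraries correlated at -0.21, 0.068 and -0.25 for ZNF683 and Mock and at 0.076, 0.055 and 0.36 for Dox+ and Dox-. Those of differently numbered libraries reached 0.31 and 0.20. With 3 libraries a group, these values cannot show whether equal numbers mark pairs, so a replicate block was fitted as an alternative. With the replicate block the counts were 0, or 12 with median-of-ratios scaling, for ZNF683 against Mock, 34 or 0 for doxycycline and 60 for the difference.

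In doxycycline, RPL14, RPL21, RPL5, RPS23, RPS29 and RPS6 turned to -0.17, -0.16, -0.18, -0.095, -0.045 and -0.082 with median-of-ratios scaling, also with the members left out of the factors or with the replicate block, and to -0.25, -0.24, -0.26, -0.18, -0.13 and -0.16 with AL135790.1 left out. Leaving out 1 library, all 10 of the following ran below 0 without Dox- library 1, over -0.27 to 0.32 for RPL14, -0.23 to 0.34 for RPL21, -0.24 to 0.22 for RPL5, -0.17 to 0.30 for RPS23, -0.18 to 0.51 for RPS29, -0.15 to 0.36 for RPS6, -0.094 to 0.60 for RPL35, -0.018 to 0.60 for RPS10, -0.053 to 0.63 for RPS15, -0.022 to 0.61 for RPS16. For ZNF683 against Mock, RPS2 ran over -0.016 to 0.36 and RPS26 over -0.43 to 0.019. The other 550 single-gene values kept their direction and side of the threshold. The subunit ratio does not use the pseudocount, filter or moderation.

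Depth is unknown, so values carry no counting error. With 3 libraries a group, 1 library sets most values: ZNF683 library 3 lay with Mock, and Dox- library 1 was lowered by 1 dominant transcript. TPM are relative, so less ribosomal protein messenger RNA and more of other RNA cannot be told apart.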

Other observations

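The relation between coding length and the members' distance from the Mock mean differed from library to library. Spearman's correlation across the 77 genes was 0.55, 0.92 and 0.19 in ZNF683 libraries 1, 2 and 3 and -0.10, 0.75 and -0.50 in Mock libraries 1, 2 and 3. The Mock distances are taken from the mean of the same 3 libraries, so their signs are tied to each other. Leaving out each library in turn, the correlation with the log2 change ran from 0.65 without ZNF683 library 2 to 0.90 without Mock library 2. In the doxycycline table the values by library were 0.28, -0.16 and -0.063 in Dox+ libraries and 0.29, -0.53 and 0.33 in Dox- libraries. These correlations describe genes that share a library, and were computed after the order by length had been seen.

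Processed pseudogenes of ribosomal proteins, listed under their own symbols, held between 2.87% and 3.28% of the summed TPM of members and pseudogenes. The share was uneven: of the members, 70 had under 5% in the ZNF683 and Mock libraries, while pseudogenes of RPL21 held 60.7%, those of RPS28 46.9%, those of RPL22 39.1%, those of RPL23A 19.6%, those of RPS2 14.002% and those of RPSA 10.3% of the sum with their member. Adding pseudogene TPM to each member moved 1 log2 change by more than 0.1 for ZNF683 against Mock, that of RPL22, which was -0.35 summed and -0.18 alone. It moved 1 for Dox+ against Dox-, that of RPSA, which was 0.15 summed and 0.25 alone. Levels of these members are uncertain to that extent.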
